A study of Mus musculus with 3 samples.

Results

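Heterogeneous nuclear ribonucleoproteins (hnRNPs) are abundant nuclear RNA-binding proteins. They coat nascent transcripts and take part in splicing, 3′ end formation, export, translation and decay of mRNA. Many of them are known to bind their own transcripts, and part of this binding lies in introns and untranslated exons near the 3′ end of the gene. In mammalian cells most genes can be cleaved and polyadenylated at several sites, and the site used sets how much 3′ untranslated sequence the mRNA carries.

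The 10 genes described here were Hnrnpa0, Hnrnpa1, Hnrnpa2b1, Hnrnpa3, Hnrnpab, Hnrnpc, Hnrnpd, Hnrnpf, Hnrnpk and Hnrnpu. They were followed in 3 poly(A) site libraries of F121-9 at passage 14, an embryonic stem (ES) line that the labels describe as a hybrid of Cast and 129 mice. All 3 libraries formed 1 group without treatment, each made from 500 ng of RNA by QuantSeq, which reads the last bases of a transcript before its poly(A) tail. A poly(A) site was assigned to a gene when it lay on the strand of the gene, between the gene start and 1000 bases past the gene end in the GENCODE M21 annotation of the mm10 build. This rule gave 189 of the 178115 listed sites, for 10 of 21653 genes with a site, and 165532 reads. No condition could be set against another, and the comparisons were between sites and genes within each library. Levels were in RPM, the reads at a site scaled to the total of the library, summed per gene. The method is meant to give about 1 read per molecule whatever its length, and on that basis RPM values of different genes were set side by side. Reads per molecule were not measured, and reads that align to several places can shift the level of a gene.

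The libraries held 11085428, 14855484 and 14064461 reads in replicates 1, 2 and 3. Reads on the X, Y and mitochondrial chromosomes were missing from replicate 3, which raises its RPM on the autosomes, where all 10 genes lie. The labelled cell type was checked with 10 markers of naive ES cells, of which 9 reached 1 RPM and 7 reached 100 RPM. Their summed level was 3466 to 4095 RPM per library, with Dppa5a lowest at 0.314 RPM. Of 6 fibroblast markers 4 reached 1 RPM, with a sum of 129 to 223 RPM, mostly from Thy1 and Vim, while Col3a1 had 0.0898 RPM and Acta2 had 0.180 RPM. The 4 primitive endoderm markers summed to 1.89 to 6.97 RPM and the 4 neuroectoderm markers to 38.0 to 59.4 RPM. No marker had a mean of 0, but some, Dppa5a and Col3a1 among them, had no reads in some of the libraries. The part of other cell types in the levels below was not tested.

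Cleavage is directed mainly by a hexamer, the poly(A) signal, that lies a short way upstream of the site and binds the cleavage and polyadenylation specificity factor. The most used form is AATAAA, followed by ATTAAA, and other single-base variants are weaker. The sequences below show the bases before the most used site of each gene and before the end sites of the genes with a significant comparison, because the choice between these sites is the main result. They are 30 bases of the GRCm38 (mm10) genome on the strand of the gene, with the signal in capitals. Each ends at the site, except at Hnrnpa2b1, the most used Hnrnpab site and the most used Hnrnpd site, where the stretch starts at a signal that lay farther upstream. A sequence without capitals had no signal hexamer in the deposited lists.
Hnrnpa0 proximal, chr13:58126914-58126943, minus strand: tatttttAATAAAtcattgtgtttgaccgt
Hnrnpa0 distal, chr13:58125880-58125909, minus strand: tggatatcacaAATAAAgaattcaattctt
Hnrnpa1 most used, chr15:103244931-103244960, plus strand: ctcAATAAAcgatttaattctcttgaatgg
Hnrnpa2b1 most used, chr6:51462752-51462781, minus strand: AATAAAataattctaaaggaaattgtgtaa
Hnrnpa3 proximal, chr2:75666476-75666505, plus strand: aaaggAATAAAagtcactcattgaaacccc
Hnrnpa3 distal, chr2:75669378-75669407, plus strand: ccttttcATTAAAatatttttagaaatgtg
Hnrnpab proximal, chr11:51601315-51601344, minus strand: ttatgtaccaaatttaacttggcaaacttt
Hnrnpab most used, chr11:51600866-51600895, minus strand: AATAAAaatgaaaaacaaaacccccaagcc
Hnrnpab distal, chr11:51600100-51600129, minus strand: gttttcttaAATAAAttgagggagaccttg
Hnrnpc proximal, chr14:52074436-52074465, minus strand: cttATTAAAccaggaatttgaaggaaagac
Hnrnpc most used, chr14:52073537-52073566, minus strand: taAATAAAacctgtttaaatatgctgttag
Hnrnpc distal, chr14:52073377-52073406, minus strand: gagAATAAAgactgtggttctgtccctttt
Hnrnpd proximal, chr5:99961157-99961186, minus strand: ATTAAAagaatttgctttcattgttttatt
Hnrnpd distal, chr5:99960598-99960627, minus strand: gcttccattaAATAAAaaaaatgtggactt
Hnrnpf most used, chr6:117925598-117925627, plus strand: taaAATAAAgactttttcacaatgactggc
Hnrnpk proximal, chr13:58391945-58391974, minus strand: ttttaaAATAAAtttagtgaatctattttt
Hnrnpk most used, chr13:58391239-58391268, minus strand: tccacatctaAATAAAacttccatgatgtt
Hnrnpk distal, chr13:58391143-58391172, minus strand: tcttgtaaggaAATACAgtaatcttaaatt
Hnrnpu proximal, chr1:178329319-178329348, minus strand: caAATAAAacgaactgatacatatttctcc
Hnrnpu most used, chr1:178328571-178328600, minus strand: tgcccatttcttATTAAAaaaacttgttgt
Hnrnpu distal, chr1:178321109-178321138, minus strand: tttcATTAAAgtaaaattgttctttcactg

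The 10 genes spanned a wide range of levels, and most were among the highest genes of these cells. Their median was 304 RPM against 15.5 RPM for the 13028 autosomal genes with at least 1 RPM, and 8 of the 10 reached 100 RPM against 12.6% of those genes. Hnrnpab, which encodes an A/B-type protein also known as CArG-binding factor A, had 822, 852 and 959.8 RPM in replicates 1, 2 and 3, a mean of 878 ± 72.4 RPM (SD, n = 3). Hnrnpu, which encodes scaffold attachment factor A, a protein that binds both chromatin and RNA, had 775, 823 and 833 RPM, with a mean of 810.5 ± 31.0 RPM. Both ranked within the top 1% of genes, with 99.3% and 99.2% of genes below them.

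Among the A/B-type genes, Hnrnpa0, whose protein binds AU-rich elements in mRNA, had 703, 806 and 720.0 RPM, with a mean of 743 ± 55.1 RPM. Hnrnpa2b1, which encodes splicing regulators that also carry mRNA in the cytoplasm, had 648, 695 and 886 RPM, with a mean of 743 ± 126 RPM. The means of these 2 genes differed by less than the spread, and replicate 3 was the highest for Hnrnpa2b1 but not for Hnrnpa0. Hnrnpa3, whose protein is closely related to hnRNP A2/B1, was lower, with 125, 159 and 127 RPM and a mean of 137 ± 19.1 RPM. Hnrnpa1, whose protein represses the use of many exons, had 102, 109 and 106 RPM, with a mean of 105.4 ± 3.57 RPM. The range of Hnrnpa1 therefore lay wholly below that of Hnrnpa3.

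Hnrnpk, which encodes a KH-domain protein that binds C-rich RNA, had 401, 428 and 399.7 RPM, with a mean of 409.7 ± 16.2 RPM. Hnrnpc, whose protein binds uridine tracts and packages nascent transcripts, had 186, 191 and 220.3 RPM, with a mean of 199 ± 18.8 RPM. Hnrnpd, which encodes AUF1, a protein that binds AU-rich elements and affects mRNA decay, had 90.8, 88.9 and 87.7 RPM, with a mean of 89.1 ± 1.55 RPM. Each of these 3 ranges lay apart from those of its neighbours in the order. Hnrnpf, whose protein binds G-tracts near splice sites, stood far below the others with 1.35, 5.05 and 2.84 RPM, a mean of 3.08 ± 1.86 RPM that rests on 15, 75 and 40 reads. The Hnrnpf site past the stop codon has near-identical copies in the genome, described below, so this low level is uncertain.

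From high to low the order of the means was Hnrnpab, Hnrnpu, Hnrnpa0, Hnrnpa2b1, Hnrnpk, Hnrnpc, Hnrnpa3, Hnrnpa1, Hnrnpd and Hnrnpf. The ranges of neighbours among the first 4 overlapped, although within each of the 3 libraries Hnrnpab was above Hnrnpu and Hnrnpu above Hnrnpa0. Hnrnpa0 was above Hnrnpa2b1 in 2 of 3 libraries. The ranges of all later neighbours were separate, in the same order in all 3 libraries. Near-identical genome copies, described below, make the levels of Hnrnpk, Hnrnpc, Hnrnpa3, Hnrnpa1 and Hnrnpf, and so their places in this order, uncertain. When RPM was rescaled to autosomal reads, the order of the means stayed as given, from 3.56 RPM for Hnrnpf to 1008 RPM for Hnrnpab. In RNA from a whole culture, fewer cells expressing a gene and less RNA per cell cannot be told apart.

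**Figure D1:**
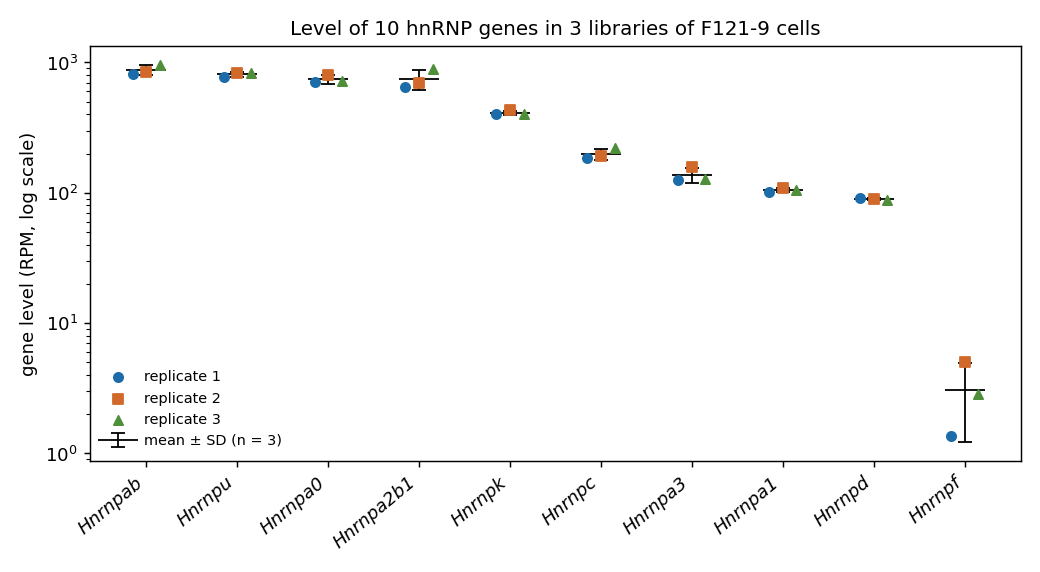
Level of each of the 10 genes in RPM (log scale, vertical axis), with points for the 3 libraries and bars for the mean ± SD (n = 3), in order of the mean. The 4 highest genes lie between 648 and 959.8 RPM, and Hnrnpf lies apart at 1.35 to 5.05 RPM.

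Reads of the 10 genes ended mainly in annotated terminal exons, which held 113 of the 189 sites and 80.8% of the reads. Other exons held 42 sites and 18.1% of the reads. Most of that, 16.4% of all reads, was at the most used sites of Hnrnpa1 and Hnrnpa2b1, which lie just past the annotated end of a terminal exon, and the other 40 sites held 1.68%. Introns held 19 sites and 0.416% of the reads, and sequence downstream of the gene held 15 sites and 0.739%. A few sites took most of the reads: 27 of the 189 sites had at least 5% of the reads of their gene. Each of the 10 genes had at least 2 such sites, against 59.1% of the 12552 genes with at least 50 reads, and 4 had at least 3, against 31.7%. For Hnrnpf the count rests on an intronic site seen in 1 library. The other sites were weak, and 76 of the 189 had reads in 1 library only. None of the 27 sites was followed by A-rich genomic sequence, where the oligo(dT) primer can start within a transcript. A-rich meant at least 12 A in the next 20 bases, or 6 A in a row. Below that limit, the Hnrnpd distal site was followed by 10 A in 20 bases and the Hnrnpu proximal site by 9. Priming within a transcript was not tested otherwise.

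The canonical signal lay in the 40 bases before 17 of these 27 sites (63.0%), against 46.7% of the 27124 such sites of all genes. ATTAAA lay before 6 (22.2%), against 15.9%. The deposited lists gave no hexamer for 3 sites (11.1%), against 16.3%. TGTA, the core of the element bound by the cleavage factor CFIm, lay in the 100 bases before 17 sites (63.0%), against 50.8%. TGTGT, a form of the downstream element, lay in the 40 bases after 4 sites (14.8%), against 15.8%. All motifs were searched on the sense strand, the windows may hold several of them, and a match does not show that a site is bound.

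The share of reads that ended at a site with a deposited canonical signal differed between genes. It was 98.3% ± 0.193 in Hnrnpa0, 98.3% ± 1.51 in Hnrnpa1 and 99.2% ± 0.163 in Hnrnpa2b1 (SD, n = 3). It was 87.0% ± 1.67 in Hnrnpc, 82.7% ± 0.575 in Hnrnpab, 80.9% ± 2.45 in Hnrnpk and 72.4% ± 3.48 in Hnrnpa3. Hnrnpu, with 42.3% ± 2.01, and Hnrnpd, with 11.7% ± 1.41, were lowest, and the most used site of each carried ATTAAA. Hnrnpc depends on the window, because its proximal site has ATTAAA 27 bases and AATAAA 42 bases upstream. Counted in 40 bases of genome sequence, its share was 60.5%, 68.9% and 64.3% in replicates 1, 2 and 3.

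Hnrnpa0, Hnrnpa1, Hnrnpa2b1 and Hnrnpa3 each had 2 sites above 5%, and the one nearer the stop codon was the stronger. Hnrnpd had the same order, while Hnrnpab did not. In Hnrnpa0, the site 482 bases past the stop codon had 545, 620.0 and 491 RPM and took 74.3% ± 5.20 of the reads of the gene. The site 1516 bases past the stop codon had 145, 174 and 216 RPM, or 24.1% ± 5.14. The proximal site was higher in every library, and the gap was smallest in replicate 3. In Hnrnpa3, the site at 1219 bases had 89.1, 121 and 88.3 RPM and took 72.2% ± 3.23, and the site at 4121 bases had 34.0, 34.3 and 29.2 RPM and took 23.9% ± 2.87.

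In Hnrnpa1, the site at 946 bases had 83.6, 95.3 and 91.8 RPM and took 85.5% ± 2.87 of the reads. It lies 5 bases past the annotated end of a terminal exon. The site at 2684 bases, just past the end of 2 transcripts annotated as targets of nonsense-mediated decay, had 15.4, 9.83 and 13.7 RPM and took 12.4% ± 3.11. In Hnrnpa2b1, the site at 686 bases had 482, 537 and 727 RPM and took 77.9% ± 3.86, and the site at 2308 bases had 138, 145 and 145 RPM and took 19.5% ± 2.71. The higher gene level of Hnrnpa2b1 in replicate 3 was thus seen at its proximal site, while the distal site had nearly the same RPM in all 3 libraries. An intronic site of Hnrnpa2b1 between these 2 had 15.3, 4.31 and 4.83 RPM, highest in replicate 1. Distances are along the genome, and those of Hnrnpa1, Hnrnpa2b1, Hnrnpa3 and Hnrnpd include at least 1 intron past the stop codon.

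Hnrnpab had 4 sites above 5%, with the strongest in the middle. The site at 547 bases had 520.1, 526 and 641 RPM and took 63.9% ± 2.58 of the reads, and the site at 1308 bases had 149, 167 and 146 RPM and took 17.6% ± 2.20. Nearer the stop codon, the sites at 93 and 135 bases had no deposited signal and took 5.38% ± 0.861 and 5.73% ± 0.571. In Hnrnpc the strongest site, at 1543 bases, had 103, 119 and 124 RPM and took 58.0% ± 3.69. Its proximal site at 644 bases had 48.0, 38.0 and 47.1 RPM, and its last site at 1703 bases had 4.51, 10.6 and 15.002 RPM, so that the last site was the lowest of the 3 in every library. An intronic site of Hnrnpc took 0.960% ± 0.936 of the reads and is followed by A-rich sequence.

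In Hnrnpd, the site at 1392 bases had 72.0, 70.1 and 57.0 RPM and took 74.4% ± 8.16 of the reads, and the site at 1947 bases had 6.13, 5.59 and 5.76 RPM and took 6.54% ± 0.237. An intronic site of Hnrnpd with the canonical signal had 1.80, 3.70 and 5.90 RPM, highest in replicate 3, where the proximal site was lowest. In Hnrnpk, 2 sites took overlapping shares of the reads. The site at 498 bases had 179, 177 and 130.3 RPM and took 39.6% ± 6.26, and the site at 1204 bases had 152, 173 and 182 RPM and took 41.3% ± 3.84. Their order differed between libraries, with the proximal site higher in replicates 1 and 2 and lower in replicate 3. A further site at 1300 bases, with the variant signal AATACA, had 55.1, 66.4 and 76.7 RPM.

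Hnrnpu spread its reads most evenly, over 5 sites above 5%, against 6.69% of all genes with 5 or more. The site at 35 bases had 167, 153 and 149.9 RPM and took 19.4% ± 1.93. The sites at 324 and 783 bases took 14.01% ± 1.49 and 26.2% ± 3.24, and the site at 1054 bases took 22.04% ± 3.89, rising above the site at 783 bases in replicate 3 alone. The last site lies 8245 bases past the stop codon, at the end of a transcript annotated without a coding sequence, and had 74.8, 62.8 and 81.0 RPM. The site at 324 bases has the variant signal AGTAAA. The most used intronic site of Hnrnpu had 1.26, 1.01 and 0.640 RPM, or 0.121% ± 0.0431 of the reads. In Hnrnpf, the site at 623 bases had 0.0902, 5.05 and 2.84 RPM, so in replicate 1 it held 1 read, and the other reads of that library were at an intronic site with 1.26 RPM that had no reads in replicates 2 and 3.

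**Figure D2:**
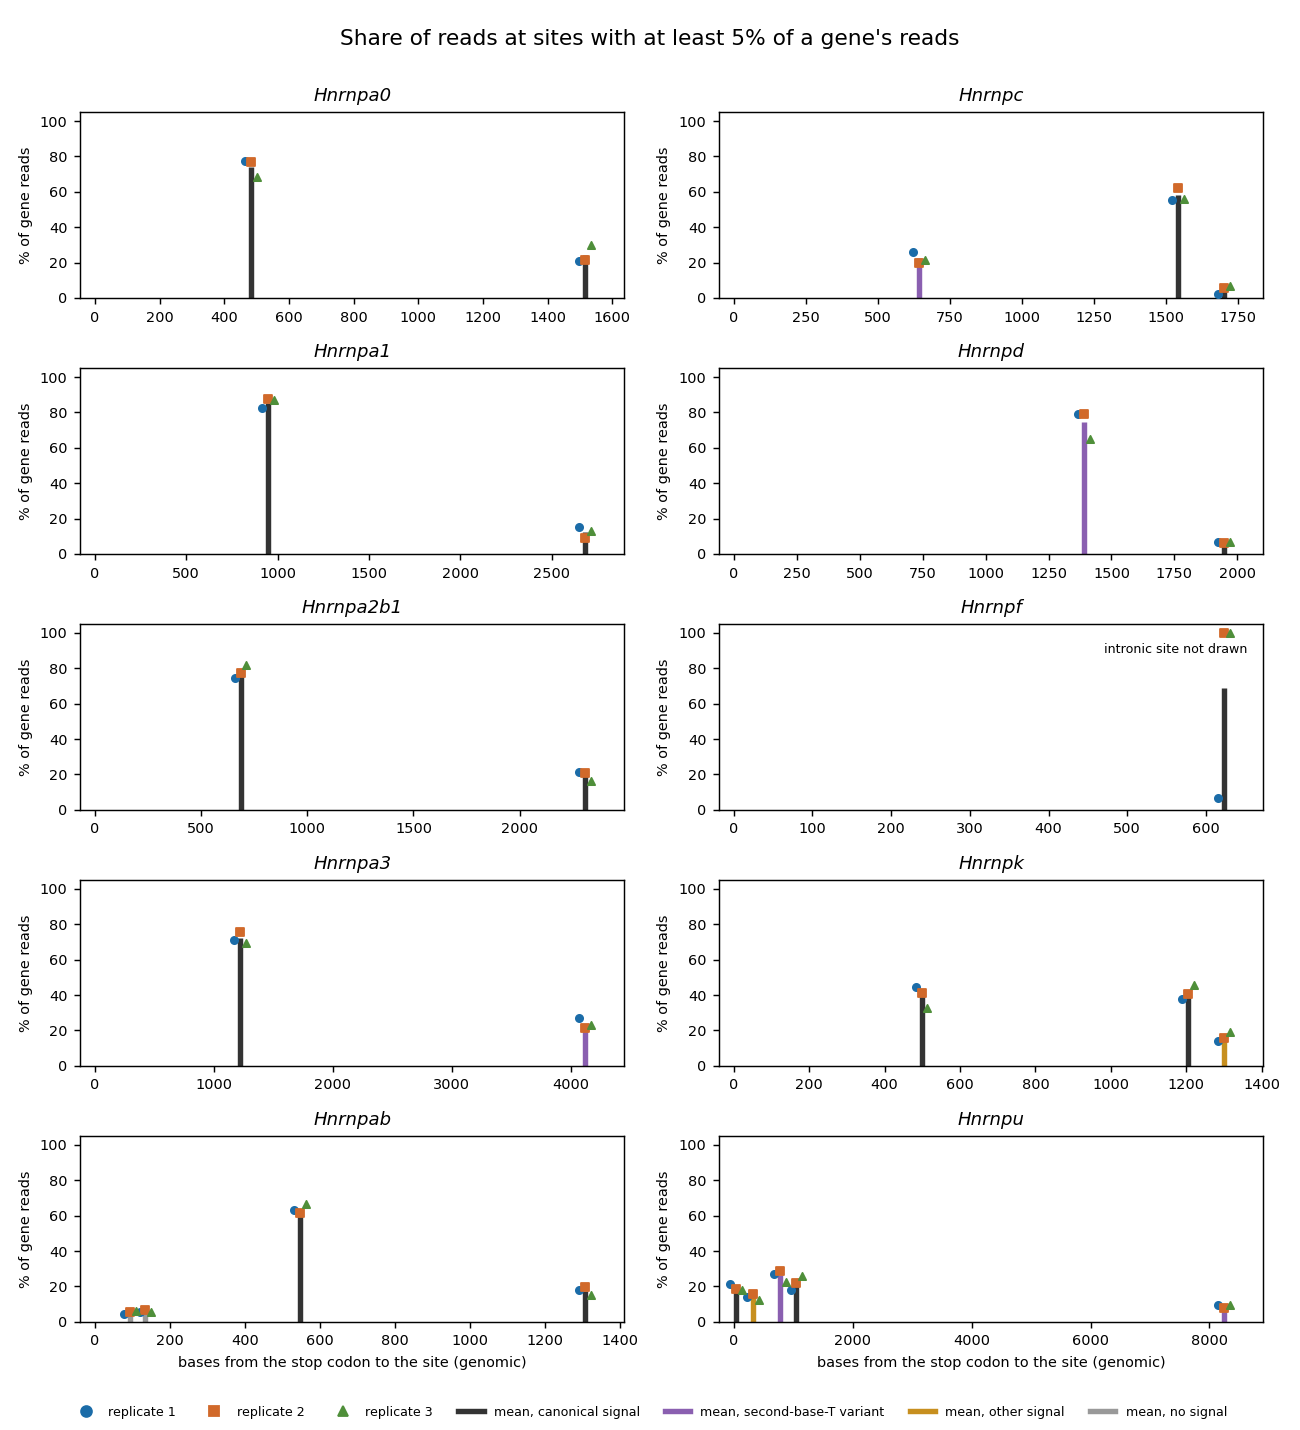
Share of the reads of each gene (vertical axis, %) at its sites with at least 5% of the reads, by genomic distance from the stop codon in bases (horizontal axis), with bars for the mean, coloured by the deposited signal, and points for the 3 libraries, set slightly apart sideways. The site nearest the stop codon is the highest in Hnrnpa0, Hnrnpa1, Hnrnpa2b1, Hnrnpa3 and Hnrnpd, while Hnrnpu has 5 sites of 9.00% to 26.2% on average.

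A mean position of the 3′ end was taken over the reads at sites past the stop codon with at least 5% of the reads of the gene. Weaker sites were left out, and the sites used held 80.7% of the reads in Hnrnpd and 85.4% in Hnrnpc. The mean lay at 640.1 ± 20.3 bases past the stop codon in Hnrnpab and 735 ± 54.2 bases in Hnrnpa0 (SD, n = 3). It lay at 932 ± 49.4 bases in Hnrnpk, 1011 ± 48.3 in Hnrnpa2b1 and 1166 ± 54.3 in Hnrnpa1. The values were 1316 ± 40.7 bases in Hnrnpc, 1360.5 ± 115 in Hnrnpu, 1437 ± 5.18 in Hnrnpd and 1941 ± 79.3 in Hnrnpa3. That of Hnrnpu includes the site at 8245 bases, at the end of the transcript without a coding sequence, so it is not a length of the coding mRNA. All these means are distances along the genome. Those of Hnrnpa1, Hnrnpa2b1, Hnrnpa3 and Hnrnpd include at least 1 intron, so they are not lengths of mRNA either. The mean of Hnrnpa1 also includes the site at 2684 bases, just past transcripts annotated as targets of nonsense-mediated decay.

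To ask whether proximal or distal ends were used more, the most distal site in any annotated terminal exon of a gene with at least 5% of the reads was compared with the most proximal one within each library. The pair can lie in the last exons of different transcripts, as it did in Hnrnpu, where the proximal site belongs to the coding transcript and the distal site to the transcript without a coding sequence. The comparison was made for all 5246 autosomal genes with such a pair. Across these genes the distal site was used more at 31.0% of pairs and the proximal site at 12.5% (limma, Benjamini-Hochberg adjusted p under 0.05 and a ratio of at least 2-fold). Of the 10 hnRNP genes 7 had a pair, of which 6 used the proximal site more and 1 used the distal site more. On the log2 scale, the median of distal over proximal RPM was −1.60 for the 7 genes and 1.31 for all genes tested. Each of the 7 had the same direction in all 3 libraries.

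The largest ratio was that of Hnrnpd, with a log2 ratio of −3.49 (SE 0.31, adjusted p = 1.47e-07 by limma), and its distal site took 8.14% ± 0.934 of the RPM at the pair. Hnrnpc followed with −2.29 (SE 0.37, adjusted p = 7.84e-05 by limma), where the distal site took 18.2% ± 8.41 and was lowest in replicate 1. Hnrnpa0 had −1.64 (SE 0.16, adjusted p = 3.68e-07 by limma) and Hnrnpa3 had −1.60 (SE 0.21, adjusted p = 1.07e-05 by limma). Their distal sites took 24.5% ± 5.24 and 24.9% ± 2.73, about the same share in both genes. Hnrnpk had −1.29 (SE 0.20, adjusted p = 5.46e-05 by limma) and Hnrnpu had −1.11 (SE 0.18, adjusted p = 7.59e-05 by limma), the smallest of the 6 ratios. Hnrnpab was the exception, with 1.72 (SE 0.20, adjusted p = 2.62e-06 by limma) and 76.5% ± 4.78 at its distal site.

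Hnrnpa2b1 had no pair because its strong site lies a few bases past an annotated terminal exon, and Hnrnpa1 had none because both of its sites do. In each gene the 2 sites lie in, or just past, the last exons of different transcripts. When terminal exons were extended by 24 bases, an alternative chosen after seeing the data, Hnrnpa1 gave −2.81 (SE 0.27, adjusted p = 4.01e-08 by limma) and Hnrnpa2b1 gave −2.004 (SE 0.16, adjusted p = 3.39e-09 by limma). In that fit 8 of 9 genes used the proximal site more, against 12.9% of 5731 genes, and 1 the distal site, against 32.6%. Hnrnpf had no pair, since its intronic site is not in the terminal exon.

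The comparison of end sites leaves out the sites between them, which matter in Hnrnpab, Hnrnpc, Hnrnpk and Hnrnpu. With the 2 most used sites in place of the end sites, Hnrnpab turned to −1.87 (adjusted p = 3.75e-06 by limma) and Hnrnpc to 1.38 (adjusted p = 1.72e-04 by limma), while Hnrnpk with 0.07 (adjusted p = 0.77) and Hnrnpu with −0.26 (adjusted p = 0.255) did not pass the test. In that comparison 4 of the 7 genes used the proximal site more, against 13.0% of all genes, and 1 the distal site, against 29.8%. The values of Hnrnpa0, Hnrnpa3 and Hnrnpd come from the same pair in both comparisons. The calls also rest on letting the variance follow the mean level: without it, Hnrnpd alone passed (adjusted p = 0.0432 by limma), against 5.89% of all genes on the proximal side and 15.1% on the distal side, and the other 6 had adjusted p of 0.0641 to 0.112. edgeR on the recovered reads gave the same 7 calls, with 25.8% of all genes called distal and 10.6% proximal.

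**Figure D3:**
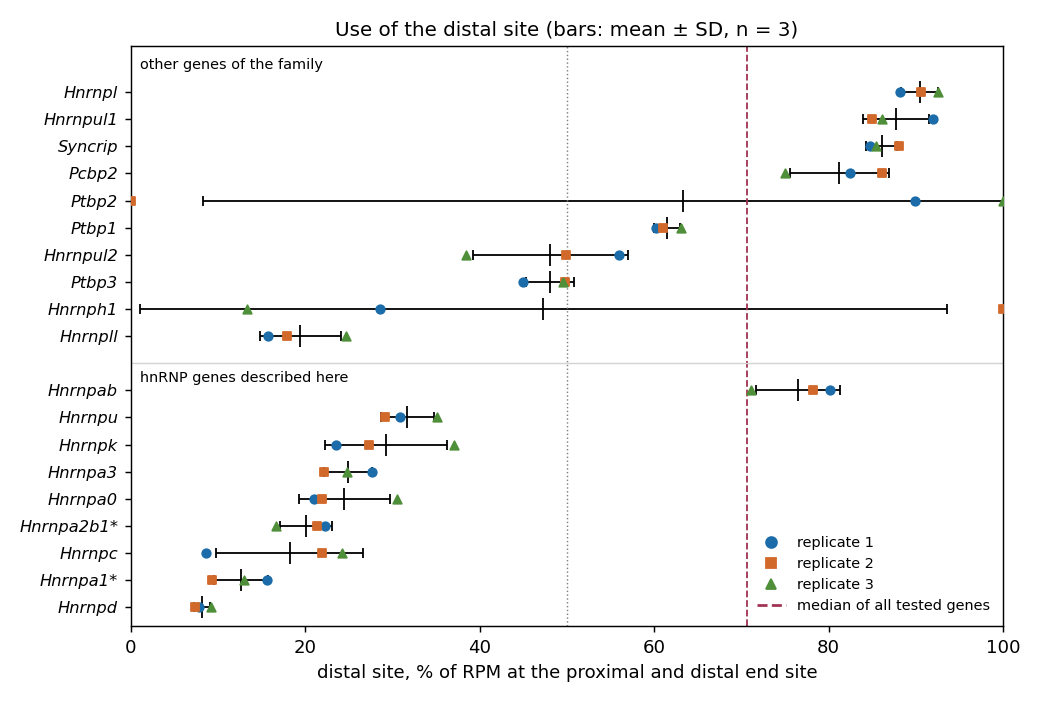
Distal site as a percentage of the RPM at the proximal and distal end site (horizontal axis), with points for the 3 libraries and bars for the mean ± SD (n = 3). The dashed line is at 70.6%, the median of the 5246 genes tested without extended terminal exons. An asterisk marks the genes tested only with extended terminal exons, which are not among those 5246. Hnrnpab lies above 50%, and the other 8 hnRNP genes of the lower panel lie below it in all 3 libraries.

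In 21 other genes of the hnRNP family, 10 had a pair of end sites. The distal site was used more in 4 of them, against 31.0% of all genes tested. The log2 ratios of these 4 were 3.26 in Hnrnpl, 2.88 in Hnrnpul1, 2.63 in Syncrip and 2.15 in Pcbp2. The 2 sites of Hnrnpl lie 96 bases apart. The proximal site was used more in Hnrnpll alone, with −2.07, against 12.5% of all genes tested, and the other 5 were not called. The median log2 ratio of the 10 was 0.97, against 1.31 for all genes tested. Among the 10, a gene with 209 reads had an SE of 2.13 and one with 279 reads had 1.94, so this median is loose. Family genes on the X chromosome could have no pair, and their levels rest on replicates 1 and 2. Of the 21 genes 20 reached 1 RPM. A level of 100 RPM was reached by 12, against 12.6% of the autosomal genes with at least 1 RPM. The highest levels were in Pcbp1 (567 ± 87.0 RPM), Pcbp2 (499 ± 38.6), Ptbp1 (471 ± 6.02) and Hnrnpm (375 ± 43.3).

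The hnRNP genes have many processed pseudogenes, and how reads that align to several places were counted is not given in the sources used here. The 200 bases before each of the 27 sites were therefore aligned to the genome, and 6 sites had another match of at least 97% identity over at least 180 bases. The most used site of Hnrnpa1 had 5 such matches, 1 of them identical, and the Hnrnpf site had 5, 2 of them identical. Both sites of Hnrnpa3 had 1 each, and the proximal sites of Hnrnpc and Hnrnpk had 1 each. Listed sites within 50 bases of the copy of Hnrnpk had 15.2, 26.2 and 14.1 RPM, and those at the copies of the other genes had at most 3.635 RPM in any library. The levels of these 5 genes and the ratios of Hnrnpa1, Hnrnpa3, Hnrnpc and Hnrnpk are therefore uncertain. The RPM at the copies does not limit how far, since reads with several alignments may also have been left out. No such match was found for Hnrnpa0, Hnrnpa2b1, Hnrnpab, Hnrnpd and Hnrnpu. The search took only sites with at least 5% of the reads and only long matches. Shorter copies and copies at weaker sites would be missed, so reads with several alignments are not excluded for these genes.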

How the data were processed

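Poly(A) site sequencing was done on 3 libraries of F121-9 cells, which the labels number as biological replicates 1, 2 and 3. The labels name no separate cultures, so p-values measure the spread between these libraries, which may be technical. The deposited lists give each site in RPM, as read from the values, since they have no header. Further deposited columns hold the fraction of libraries that had reads there, the mean RPM, a region code and signal hexamers. The mean and the fraction matched a recomputation at 178115 sites, and all 188866 deposited hexamers were found in the genome. Per the text files deposited beside the lists, alignments were to mm10 and the annotation was M21. The sources used here name no aligner, site caller or version, no handling of reads with several alignments and no molecular identifiers, so counting limits cover counting error only.

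Whole reads were recovered: 100% of RPM values were multiples of 1 step within 0.01 reads, and 91.5%, 91.0% and 92.7% of the reads lay at listed sites in replicates 1, 2 and 3. Sites were assigned by place in M21, and 78 tied sites were left out. The region codes are not explained and were not used. Ratios were log2((distal RPM + 0.05) / (proximal RPM + 0.05)) in genes with at least 50 reads, with the library as the pairing, since both sites come from the same library. They were tested in limma 3.58.1 (R 4.3.3) over all genes, with a variance that follows the mean level. That choice was made after seeing simulated data, and the calls without it are given beside the results. edgeR 4.0.16 on the recovered reads called 1352 genes distal and 556 proximal, against 1626 and 654. Genome copies were searched with BLAST 2.17.0. Alternatives covered the pseudocount, site and gene minimums, A-rich sites, TMM scaling, the pairing and each library left out.

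All 10 genes are named. Sites are described singly from 5% of the gene's reads, with the most used intronic site where all 3 libraries had reads. Of 21 other family genes, those called and the 4 highest are named. The genes and lists were chosen with earlier results of these data known.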

Additional observations from a re-analysis of the deposited data

Results flagged for a closer look

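Reads on the strand opposite an hnRNP gene are not in the values of the 10 hnRNP genes above. Those assigned to another autosomal gene could count in the values over all genes. Opposite Hnrnpu there were 1208 reads at 4 sites, 227, 490 and 491 in replicates 1, 2 and 3, or 29.5 ± 7.84 RPM (SD, n = 3), and these sites were assigned to Cox20, which lies on the other strand. Opposite Hnrnpab there were 80 reads, 7, 69 and 4 in replicates 1, 2 and 3, at 4 sites with reads assigned to Phykpl. Both stood out because every library was above 3 counts, the limit that a count of 0 allows. The spread between libraries was wide at Hnrnpab, where replicate 2 held most of the reads.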

How the results depend on the processing

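Leaving out 1 library kept the calls of all 7 genes, 1 distal and 6 proximal each time, while over all genes distal calls ranged from 843 (without replicate 2) to 1270 and proximal calls from 392 to 541, with fewer libraries in the fit. Over all genes, distal calls went from 1626 of 5246 genes tested to 864 of 3957 with a site minimum of 10%. They were 3286 of 7316 with 1%, and of the 5246 genes 1062 with TMM scaling and 793 without the variance trend. Proximal calls went from 654 to 309 without the trend, and were 447 of 3957 genes with the 10% minimum and 796 of 7316 with 1%. TMM scaling moved the median log2 ratio from 1.31 to 0.44 and raised proximal calls from 654 to 972, close to its 1062 distal calls. Among the hnRNP genes, distal calls went from 1 to 2 with the 1% minimum, 0 with TMM and 0 without the trend, and proximal calls from 6 to 1 without the trend and to 4 with the 10% minimum (6 genes tested), the 1% minimum and the 2 most used sites. Hnrnpab under TMM kept its direction, with a log2 ratio of 0.85, under 2-fold. Ratios turned in sign where another pair of sites was compared: with the 2 most used sites in Hnrnpab (−1.87), Hnrnpc (1.38) and Hnrnpk (0.070), with the 10% minimum in Hnrnpab (−1.87), Hnrnpc (1.38) and Hnrnpu (0.18), and with the 1% minimum in Hnrnpa3 (3.31) and Hnrnpc (0.56). Hnrnpd had no pair at 10%. With no replicate block, so that the pairing of sites by library was dropped, 1769 genes were distal and 706 proximal, and the 7 hnRNP calls were as before. Depth was lowest for Hnrnpf, with 15 to 75 reads per library, and the genome copies of its site are a further limit.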
